A study of Mus musculus with 4 samples.

Results

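The *Twist1* and *Prrx1* mesenchyme of day 6 comprised 429 of the 5850 kept cells of that day, or 7.33% (95% Clopper-Pearson interval 6.68 to 8.03%), in a series of 31330 cell barcodes. The cells came from gastruloids, aggregates of mouse embryonic stem cells that elongate and form derivatives of several germ layers. All libraries came from the wild type Zx1 line, cultured in N2B27 with an early pulse of the Wnt agonist Chiron and, from day 4 until after day 6, with bFGF, VEGF and ascorbic acid. There was 1 single-cell library at each of days 4, 5, 6 and 11, and each pooled several gastruloids. The spread between gastruloids, cultures or clones was therefore not measured, no test was possible, and every interval below is a 95% interval for counting error only. At day 6 no cell type had been sorted out, so the rest of the library served as the comparison.

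*Twist1* encodes a basic helix-loop-helix factor that drives epithelial cells towards a migratory mesenchymal state. *Prrx1* and *Prrx2* encode closely related paired-type homeodomain factors of the mesenchyme of the limb bud, the face and the pharyngeal arches. In the embryo these factors mark loose, proliferating mesenchyme before it becomes cartilage, tendon, dermis or stroma, and the mesenchyme of different body regions is told apart by *Hox*, *Hand* and *Alx* genes.

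Cells were chosen on their own unique molecular identifiers (UMIs, each standing for 1 captured RNA molecule). Of the 6628 barcodes of day 6, 621 held fewer than 2000 UMIs and a further 157 had a mitochondrial share of 20% or more, which left 5850. *Twist1* reached 3 UMIs in 3003 of them, *Prrx1* in 1121 and both in 862. From these 862, the rule removed cells with 2 or more UMIs of *Tcf21* or of *Lhx2*, with 3 or more of *Tcf15* plus *Meox1*, or with 30 or more of *Myl7* per 10000 UMIs. These limits took out 433 cells, of which 159 failed only on *Tcf21*, 94 only on *Tcf15* plus *Meox1*, 60 only on *Lhx2*, 34 only on *Myl7* and 86 on more than 1 of them. The values of these 7 genes in the chosen cells follow from the rule and are no finding.

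**Figure D1:**
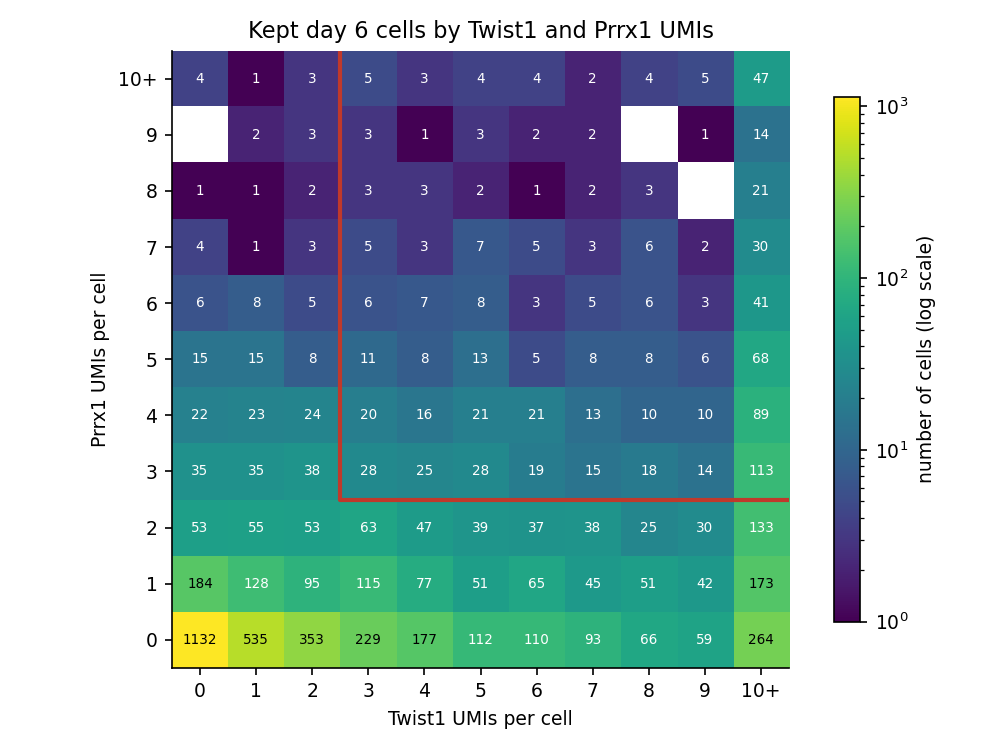
Number of kept day 6 cells by UMIs of *Twist1* (horizontal axis) and *Prrx1* (vertical axis), with the last row and column holding 10 or more; colour is on a log scale. The red line marks the limits of 3 UMIs, and the counts fall off gradually across it, with 1132 cells at 0 of both genes.

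Cell numbers changed gradually across the limits. Among cells that met every other condition, 132 held exactly 3 *Prrx1* UMIs, just inside, and 221 held 2, just outside, at median depths of 24126 and 22052 UMIs. Their levels, given in CPM (the UMIs of a gene summed over cells, per 1000000 UMIs of those cells), were 234 against 232 for *Prrx2*, 135 against 115 for *Alx1* and 68.0 against 46.5 for *Cdh11*. *Krt18* stood at 22.2 CPM inside and 66.0 CPM outside, and *Actc1* at 37.1 against 116 CPM. Neither followed the *Prrx1* count in order. With 1 *Prrx1* UMI (320 cells) they were at 29.4 and 29.0 CPM, and with none (554 cells) at 48.5 and 42.9 CPM. At the *Twist1* limit, 43 cells held 3 UMIs and 52 held 2, with *Prrx2* at 201 and 205 CPM and *Cdh11* at 90.5 and 62.1 CPM. Before any exclusion, 1110 cells had 3 or more UMIs of *Twist1* and none of *Prrx1*.

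Because the rule counts UMIs, it favours cells with more of them. The chosen cells had a median of 27719 UMIs (7353 to 129029) and 5263 genes, against 25427 UMIs and 4966 genes in the 5421 other cells, and mitochondrial shares were alike with medians of 2.70% and 2.86%. Limits per 10000 UMIs (1.5 for *Twist1* and *Prrx1*) gave 283 cells, of which 220 were also among the 429. Over the 4 libraries the kept cells had median depths of 12082 to 28400.5 UMIs and library totals of 149169498 to 236714826 UMIs. Pairs of libraries shared 5 to 23 barcodes, and 1 of the 429 cells shared its barcode with day 5 and 1 with day 11.

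*Prrx2*, which the rule did not use, was found in 413 of the 429 cells (96.3%, 94.0 to 97.9%), with 0 UMIs in the lowest cell, 6 in the median cell and 41 in the highest. It was found in 76.8% of the other day 6 cells, and after thinning each cell to 5000 UMIs the shares were 65.3% and 47.8%. In cells with 3 or more UMIs of *Cdh5*, an endothelial cadherin, the share was 40.3% (11.8% thinned) at a median depth of 39488 UMIs. In cells with 3 or more UMIs of the neural factor *Sox2* and none of *Pou5f1* it was 30.1% (10.6% thinned) at 40326 UMIs. *Lhx2*, *Tcf21* and *Tcf15/Meox1* cells are comparison sets defined below. Their shares were 95.3%, 92.2% and 78.3% (59.8%, 54.6% and 42.7% thinned). The level of *Prrx2* was 239 CPM (230 to 247) against 154 CPM in the other cells, a ratio of 1.54 (1.49 to 1.60). The marker thus went with the choice, but it was also found in most other cells, and in nearly as many *Lhx2* and *Tcf21* cells by share.

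Few genes set the 429 cells apart from all other day 6 cells. Differences are given as the log2 of the ratio of (CPM + 10), and a gene is called higher or lower where this passes 1 or -1, which is 2-fold on that scale. Of 13765 genes with at least 100 UMIs in kept day 6 cells, 4 were called higher (0.0291%) and 78 lower (0.567%). The rule itself had set 2 of the former, *Twist1* and *Prrx1*, and 3 of the latter. The median over all genes was 0.0079, and 53.3% lay above 0. The remaining higher genes were *Lix1* and *Cdh11*, and neither was called with limits of 2 UMIs, with no exclusions or with the mean of per-cell CPM.

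*Cdh11*, a cadherin of mesenchymal and bone-forming cells, was at 70.5 CPM against 30.1 CPM, a ratio of 2.34 (2.18 to 2.51). It had UMIs in 311 of the 429 cells (72.5%, 68.0 to 76.7%), with 2 UMIs in the median cell and 16 in the highest, against 41.0% of the others. *Lix1* was at 87.7 against 38.3 CPM, a ratio of 2.29 (2.15 to 2.44), with UMIs in 71.3% and 43.4% of cells. After thinning, *Cdh11* was found in 30.3% of the 429 cells, 14.1% of the others and 6.48% of *Cdh5* cells, and *Lix1* in 31.7%, 17.4% and 4.86%. In *Tcf21* cells the thinned shares were 25.3% for *Cdh11* and 26.6% for *Lix1*. They were 11.4% and 23.5% in *Lhx2* cells, and 11.8% and 6.57% in *Tcf15/Meox1* cells. Both genes were therefore found in part of the chosen cells only, at this depth.

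Of 23 tested genes of the adhesion and epithelial-to-mesenchymal transition list, 6 lay above 0, 1 was called higher (*Cdh11*) and 5 lower, with a median log2 of -0.25. Over all genes 53.3% lay above 0, 0.0291% were called higher and 0.567% lower. The 5 lower genes were *Epcam*, *Krt18* and *Cldn7* of epithelia, the endothelial *Cdh5* and *Acta2*, smooth muscle actin, the last at 185 against 497 CPM. *Vim*, the mesenchymal intermediate filament gene, stood at 1466 CPM against 1489 CPM in the other cells. *Twist2* was at 46.8 against 30.3 CPM, and *Snai2*, which represses epithelial cadherin, at 48.3 against 33.0 CPM. *Epcam*, an epithelial adhesion gene, was at 3.61 CPM (2.66 to 4.79) against 32.2 CPM, and *Krt18*, a keratin, at 16.7 against 62.6 CPM. *Twist2* and *Snai2*, which stand in the list of transcription factors below, and *Vim* were not called.

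After *Cdh11* and *Lix1*, the next genes by size fell just short of the limit. *Rgs5*, a regulator of G protein signalling known from pericytes, was at 143 against 66.6 CPM, a log2 just under the limit. *Phox2a*, a homeobox gene of autonomic neurons, was at 34.9 against 13.3 CPM, and only 22.6% of the 429 cells held it, up to 32 UMIs in a cell. *Alx1*, a homeobox gene of facial mesenchyme, was at 109 against 53.1 CPM and was found in 84.4% of the chosen cells (80.6 to 87.7%) and 48.7% of the others. *Crabp1*, which binds retinoic acid in the cytoplasm, was at 194 against 99.1 CPM. *Tlx1*, a homeobox gene known from the spleen and the hindbrain, was at 37.3 against 16.1 CPM, and *Ntrk2*, a neurotrophin receptor, at 57.9 against 28.2 CPM. These 8 genes, with *Col3a1* and *Pde3a*, were scored together after thinning. They were picked by their difference between the same cells, so a higher score in the chosen cells follows from the choice and is a description only. The chosen cells held a mean of 2.86 of the 10 genes, against 1.54 in the others, 2.46 in *Tcf21* cells, 1.71 in *Lhx2* cells and 0.803 in *Tcf15/Meox1* cells, and 14.9% of them held 5 or more, against 13.4% of *Tcf21* cells and 5.73% of the others.

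**Figure D2:**
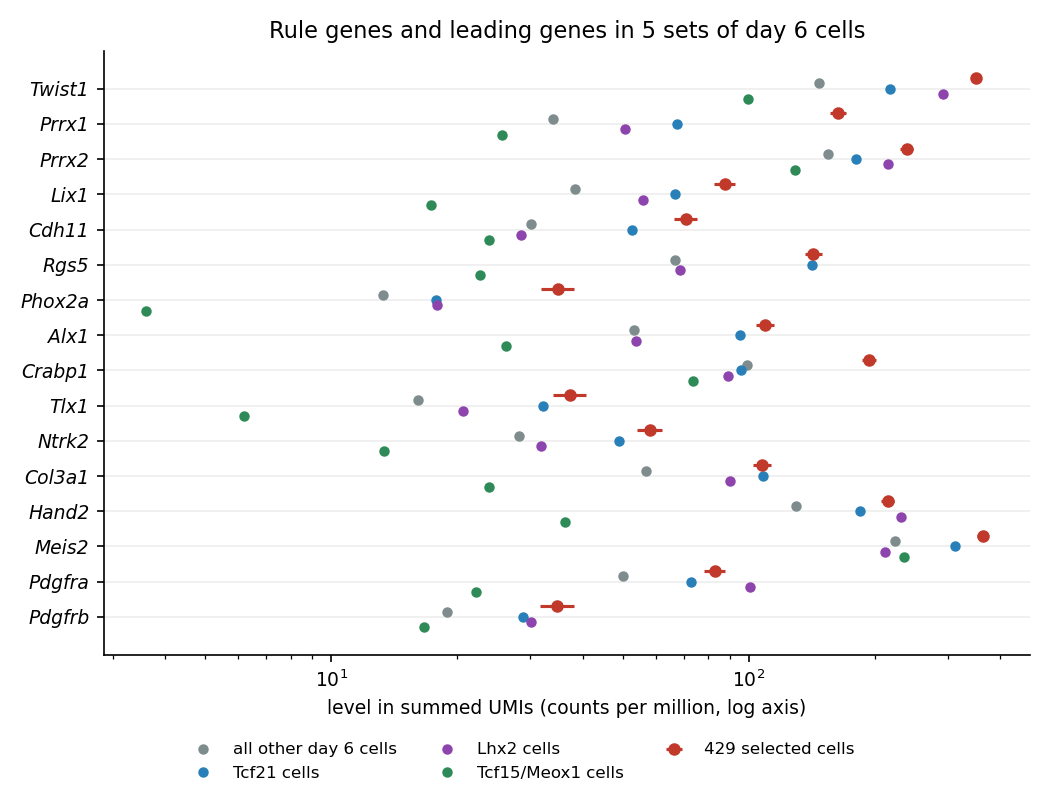
Levels (CPM, log axis) of the rule genes *Twist1* and *Prrx1*, of *Prrx2* and of 13 further genes in the 429 selected cells (red, bars are 95% Poisson intervals), all other day 6 cells (grey) and 3 comparison sets. *Tcf21* cells lie close to the selected cells for *Rgs5*, *Col3a1* and *Alx1*, while *Tcf15/Meox1* cells are lowest for most genes.

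The promoters of 3 genes are shown, the first of a rule gene and the others of leading genes with matches. Helix-loop-helix factors such as Twist1 bind E-boxes, while Prrx factors bind homeodomain sites. Each sequence is the RefSeq promoter on GRCm38.p6, from 250 bases before to 50 bases after the gene start, read 5′ to 3′ on the strand of the gene. Capitals mark the E-box letters CATATG or CATCTG and the homeodomain letters TAATTA. Each was searched on both strands, and none of these matches overlapped. *Prrx1* lies at chr1:163313601-163313900 on the minus strand, *Hand2* at chr8:57320733-57321032 on the plus strand and *Col3a1* at chr1:45311288-45311587 on the plus strand.
Prrx1: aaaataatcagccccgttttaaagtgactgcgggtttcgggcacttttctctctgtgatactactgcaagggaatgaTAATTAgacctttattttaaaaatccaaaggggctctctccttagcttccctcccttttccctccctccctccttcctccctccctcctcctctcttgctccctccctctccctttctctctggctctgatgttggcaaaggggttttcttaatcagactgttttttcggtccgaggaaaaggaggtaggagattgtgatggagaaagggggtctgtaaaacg
Hand2: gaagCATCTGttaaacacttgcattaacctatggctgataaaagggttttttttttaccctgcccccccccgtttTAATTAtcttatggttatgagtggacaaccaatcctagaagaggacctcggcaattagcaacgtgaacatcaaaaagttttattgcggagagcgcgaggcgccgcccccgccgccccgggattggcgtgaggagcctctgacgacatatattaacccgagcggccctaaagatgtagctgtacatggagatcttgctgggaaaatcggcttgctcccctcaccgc
Col3a1: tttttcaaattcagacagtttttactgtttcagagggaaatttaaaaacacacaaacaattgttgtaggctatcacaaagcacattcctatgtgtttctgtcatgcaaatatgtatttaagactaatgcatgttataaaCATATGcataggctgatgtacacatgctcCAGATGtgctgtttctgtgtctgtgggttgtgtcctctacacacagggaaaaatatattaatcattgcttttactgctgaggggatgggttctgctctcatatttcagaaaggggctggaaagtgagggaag
The 25 leading genes outside the rule had 21 promoters in the table for 20 genes, of which 8 (38.1%) held CATCTG. The letters CATATG were in 1 (4.76%), and TAATTA was in 1 (4.76%). Over all 32851 promoters the shares in the same order were 17.2%, 3.91% and 5.29%. Of the 20 leading genes, *Col3a1* was the only one with CATATG and *Hand2* the only one with TAATTA. Both also held CATCTG, so the leading genes shown are not typical of the rest. A match is a description of the letters and not evidence of binding.

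Transcription factors of mesenchyme lay above the rest more often than below, without passing the limit. Of 43 listed factors 42 were tested, 30 lay above 0 (beside 53.3% of all genes) and none was called in either direction, with a median log2 of 0.16. Against *Tcf21*, *Lhx2* and *Tcf15/Meox1* cells the median was 0.09, 0.02 and 0.29, while the values below are against all other cells. *Hand2*, which patterns limb, heart and pharyngeal mesenchyme, was at 215 CPM (207 to 223) against 129 CPM. It was found in 91.1% of the chosen cells and 66.8% of the others, and in 91.4% of *Tcf21*, 98.2% of *Lhx2* and 32.6% of *Tcf15/Meox1* cells. *Meis2*, a cofactor of Hox proteins, was at 363 against 224 CPM, and *Runx1t1*, a transcriptional corepressor, at 97.8 against 58.0 CPM. *Ebf1* and *Foxd1* ran the other way, with 11.1 against 25.7 CPM and 1.58 against 8.48 CPM.

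Matrix genes gave a similar count. Of 46 tested genes of the collagen and matrix list, 31 lay above 0 and none was called, and the summed level of all 51 listed genes was 2165 against 1932 CPM. That sum was 2400 CPM in *Lhx2* cells, above the chosen cells, 2032 CPM in *Tcf21* cells and 1675 CPM in *Tcf15/Meox1* cells. The values below are against all other cells. *Col3a1*, a fibrillar collagen, was at 108 CPM (102 to 113) against 56.8 CPM. *Fbn1*, which encodes a microfibril protein, was at 54.4 against 31.2 CPM, *Mfap4* at 99.1 against 62.6 CPM and *Vcan*, a large proteoglycan, at 236 against 178 CPM. *Hspg2* and *Col4a2*, which encode proteins of basement membrane, had lower values, at 16.3 against 31.5 CPM and 22.3 against 38.4 CPM. Cartilage and bone genes were close to the rest at 94.6 against 94.3 CPM in sum, and *Matn1*, *Ibsp* and *Tnmd* had no UMI in the chosen cells, which allows up to 0.226 CPM.

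Among signalling genes, the PDGF receptors of mesenchyme had higher values than in all other cells, not past the limit, and a ligand was called lower. *Pdgfra* was at 82.9 against 50.1 CPM and *Pdgfrb* at 34.8 CPM, a ratio of 1.84 (1.66 to 2.02) to the other cells, while *Pdgfa*, called lower, was at 5.04 against 21.8 CPM. This was the only called gene among 15 tested in the PDGF and TGF-beta list. The whole list summed to 532 CPM, against 436 CPM in the other cells. It was at 513 CPM in *Tcf21*, 666 CPM in *Lhx2* and 307 CPM in *Tcf15/Meox1* cells. Against *Tcf21* and *Lhx2* cells the median log2 of the list was 0.01 and -0.08. The single genes of this paragraph are compared with all other cells. In the retinoic acid list none of 13 was called, with *Rdh10*, which makes retinal, at 51.6 against 26.4 CPM, *Cyp26a1*, which degrades retinoic acid, at 0.301 against 6.93 CPM and *Aldh1a2* at 10.9 against 10.2 CPM. In the WNT list (28 tested, none called) the inhibitor genes *Sfrp1* and *Dkk1* were at 201 against 144 CPM and 38.5 against 27.1 CPM, and the activator *Rspo3* was at 22.9 against 48.0 CPM. None of 25 BMP genes was called, and *Bmp4* was at 47.9 against 54.4 CPM. *Fgf8* (2.86 against 17.8 CPM) was the only called gene of 18 in the FGF list. No Hedgehog gene of 15 and no Notch gene of 13 was called, with the Hedgehog receptor *Ptch1* at 32.1 against 44.1 CPM.

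Lists for regions of the embryo gave no single address for these cells. Counts above 0 stand beside 53.3% of all genes, and single genes are compared with all other cells unless another set is named. The limb and lateral plate list summed to 720 CPM, with 654, 859 and 393 CPM in *Tcf21*, *Lhx2* and *Tcf15/Meox1* cells. In the same order the cranial list summed to 655 CPM, with 534, 637 and 454 CPM. The cardiopharyngeal list summed to 615 CPM, with 618, 1043 and 290 CPM. In the limb and lateral plate list 10 of 21 tested genes lay above 0, none was called higher and *Hoxa9* (8.58 against 31.8 CPM) was called lower, with a median log2 of -0.03. Members with higher values, not past the limit, were *Irx3* at 72.6 against 37.9 CPM, *Irx5* at 47.7 against 26.7 CPM and *Pitx1* at 27.0 against 14.9 CPM, and the forelimb factor *Tbx5* was at 17.8 against 19.4 CPM. In the cranial list *Alx1* and *Crabp1* had higher values, 6 of 21 tested genes lay above 0 and none was called, and the neural crest factor *Sox10* had UMIs in 0.233% of the chosen cells and *Foxd3* in none, where a count of 0 allows a share of up to 0.699%. In the cardiopharyngeal list 9 of 18 tested genes lay above 0, none was called higher and *Fgf8* was called lower, with a median log2 of 0.02. *Isl1* was at 52.9 against 35.0 CPM and *Ebf3* at 15.8 against 8.44 CPM. *Tbx1* was at 3.16 CPM (2.28 to 4.27) against 0.751 CPM, with UMIs in 6.06% of the chosen cells (4.00 to 8.75%) and 1.64% of the others, and in 4.86% of *Cdh5* cells. *Gsc*, a homeobox gene of the organizer and later of facial mesenchyme, was at 9.48 CPM (7.90 to 11.3) against 2.53 CPM. Among epicardial factors *Wt1* and *Tbx18* were close to the rest, with *Wt1* at 26.0 against 23.1 CPM and *Tbx18* at 4.37 against 5.72 CPM.

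The 78 lower genes were led by cardiomyocyte genes, and the rule itself limited *Myl7*, a gene of the same cells. *Actc1*, cardiac actin, was at 37.5 against 533 CPM, *Myl3* at 6.70 against 134 CPM, *Myl4* at 69.3 against 468 CPM and *Tnnt2* at 80.2 against 371 CPM. Of 14 tested cardiomyocyte genes 8 were called lower, beside 0.567% of all genes. The median cell nonetheless held 2.30 UMIs of the cardiomyocyte list per 10000 UMIs, against 1.66 in the other cells, so the summed levels and the median cells ran in opposite directions. Pluripotency, endoderm, neural and endothelial genes followed, with *Dppa5a* at 0.376 against 40.9 CPM, *Spink1* at 0.226 against 28.6 CPM, *Sox2* at 7.30 against 35.8 CPM and *Cdh5* at 7.53 against 41.7 CPM. Some RNA of these types remained in single cells. The endothelial list reached 10 UMIs in 19 of the 429 cells (4.43%), the endoderm list in 50 (11.7%), the neural list in 21 (4.90%) and the cardiomyocyte list in 170 (39.6%), where the other cells gave 11.9%, 18.1%, 12.1% and 33.6%. No skeletal muscle regulator among *Myf5*, *Myf6*, *Myod1* and *Myog* had a UMI, and *Gata1*, *Spi1* and *Ptprc* of blood were also at 0, which allows up to 0.226 CPM. The part of such RNA in the values above was not tested.

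Genes of cell division had higher values together, though none passed the limit. All 16 genes of the G2 and M phase list lay above 0, with a median log2 of 0.50 (0.35 to 0.73), while the 16 S phase genes had a median of 0.07, and no gene of either list was called. *Mki67*, a marker of cycling cells, was at 201 against 117 CPM, *Cenpf*, a kinetochore gene, at 409 against 243 CPM and *Top2a* at 538 against 339 CPM. Against *Tcf21* cells the G2 and M median was smaller, at 0.18, and against *Lhx2* and *Tcf15/Meox1* cells it was 0.49 and 0.45. The difference to all other cells varied with the setting, and so did depth. With other cells weighted to the depth of the chosen cells the G2 and M median was 0.47, at limits of 2, 3 and 4 UMIs it was 0.29, 0.50 and 0.60 with median depths of 24780, 27719 and 30214.5 UMIs, and with limits per 10000 UMIs it was 0.29 at 22262 UMIs. With no exclusions the median was 0.45 at 31139.5 UMIs, and with the highest doublet scores left out 0.53 at 26291 UMIs. With limits per 10000 UMIs plus depth weighting it was 0.41. Depth and this median thus did not always move together. The part of depth in the difference was not tested further.

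The nearest comparison set was the *Tcf21* cells, 696 cells with 2 or more UMIs of *Tcf21*, a factor of pharyngeal and epicardial mesenchyme, and under the limits on *Lhx2* and *Myl7*. This set and those below are also part of the other day 6 cells above. Against them 1 of 13765 genes was called higher (0.00726%), *Prrx1* itself, and 3 lower (0.0218%), which were *Tcf21* itself, *Krt18* and *Pyy*. *Krt18* was at 16.7 against 55.7 CPM, *Krt8* at 44.6 against 91.7 CPM and *Pyy*, a gut hormone gene, at 0.979 against 12.9 CPM. *Crabp1* came nearest on the higher side at 194 against 96.0 CPM (ratio 2.02, 1.90 to 2.13), followed by *Phox2a* at 34.9 against 17.8 CPM, *Ttn* at 248 against 151 CPM and *Wnt2* at 41.1 against 24.0 CPM. *Alx1* (109 against 95.2 CPM), *Rgs5* (143 against 142 CPM) and *Col3a1* (108 against 108 CPM) differed little. Few genes thus separated the chosen cells from the *Tcf21* cells at 2-fold on this scale.

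Against 490 *Lhx2* cells, with 2 or more UMIs of that homeobox gene and low *Myl7*, 9 genes were called higher (0.0654%) and 33 lower (0.24%). *Armh4* was at 102 against 27.2 CPM, *Rdh10* at 51.6 against 15.5 CPM, *Cdh11* at 70.5 against 28.6 CPM and *Crabp1* at 194 against 89.1 CPM. On the lower side stood *Sfrp5*, a WNT inhibitor gene, at 26.3 against 156 CPM, *Mab21l2* at 31.5 against 126 CPM and the homeobox gene *Shox2* at 11.0 against 56.4 CPM.

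The last set held 822 cells that were under the limits on *Tcf21*, *Lhx2* and *Myl7* and had 3 or more UMIs of *Tcf15* plus *Meox1*, genes of the somites. It is named here by those genes, since 125 of its cells (15.2%) also held 3 or more UMIs of *Cdh5*, against 1.40% of the 429 cells. Against it 97 genes were called higher (0.705%) and 126 lower (0.915%). *Hand2* was at 215 against 36.3 CPM, *Hand1* at 109 against 17.5 CPM, *Rgs5* at 143 against 22.7 CPM and *Sfrp1* at 201 against 45.6 CPM. *Cdh5*, *Emcn* and *Flt1*, endothelial genes, were among the lower ones at 7.53, 5.27 and 7.75 CPM against 84.9, 65.9 and 77.0 CPM, as were *Hoxb9* (16.1 against 111 CPM) and *Hoxc9* (10.8 against 80.6 CPM).

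*Hox* genes of the higher groups had lower values in the chosen cells. These genes are numbered by paralogue group along their clusters, and higher groups are used further back in the body. Summed by group, groups 2, 3 and 4 were at 135, 61.4 and 108 CPM against 114, 64.6 and 127 CPM in the other cells, ratios of 1.18, 0.951 and 0.856. From group 6 to group 11 the ratios were 0.260 to 0.477. *Hoxb9* was at 16.1 CPM (14.0 to 18.4) against 63.9 CPM and *Hoxc10* at 10.1 CPM (8.45 to 11.9) against 46.7 CPM. Of the 20 tested genes of groups 5 to 13, 7 were called lower, beside 0.567% of all genes, while *Hoxd9* was at 30.1 against 31.1 CPM. The *Lhx2* cells had nearly the same profile, at 61.2 CPM for group 9 against 65.6 CPM, the *Tcf21* cells lay above at 124 CPM and the *Tcf15/Meox1* cells at 288 CPM. No UMI of groups 5 to 13 was found in 38.7% of the chosen cells, 29.9% of the others and 44.3% of *Lhx2* cells, and after thinning in 64.6%, 48.2% and 71.0%. In *Tcf15/Meox1* cells the share was 4.99% before thinning. The part of the limit on *Tcf15* plus *Meox1* in this profile was not tested.

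**Figure D3:**
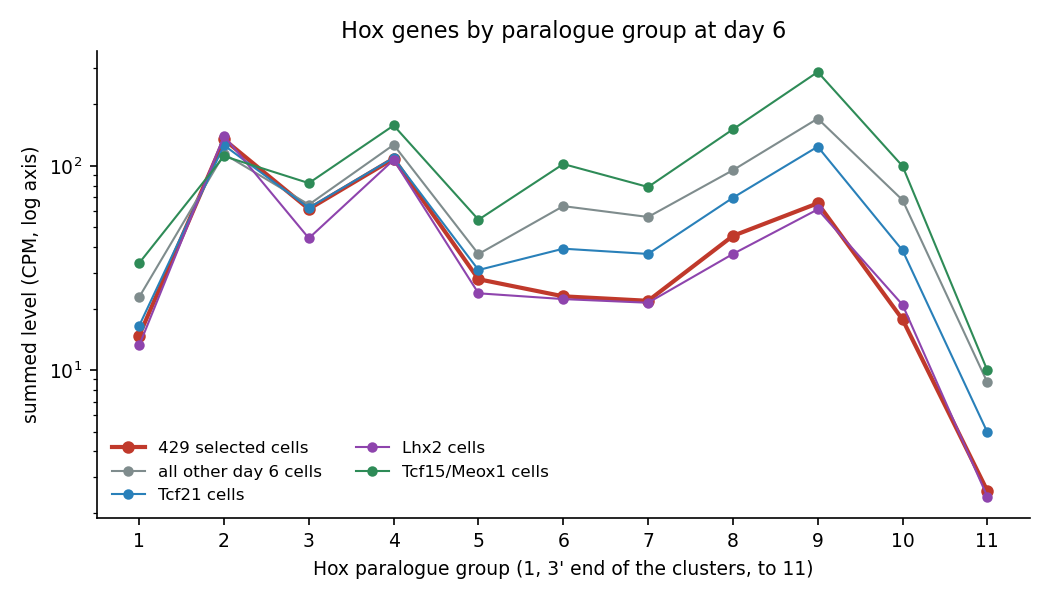
Summed level (CPM, log axis) of the *Hox* genes of paralogue groups 1 to 11 in the selected cells and the 4 comparison sets. The lines run together in groups 2 to 4 and part from group 6 on, where the 429 cells and the *Lhx2* cells are lowest, at 65.6 and 61.2 CPM in group 9.

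The 429 cells were themselves mixed in their *Hox* content. Splitting them gave 184 cells with 3 or more UMIs of groups 5 to 13 and 166 with none, at median depths of 33384 and 22159 UMIs. In the cells with these *Hox* genes, 47 genes were higher (0.341%), of which 14 were *Hox* genes used in the split, and 59 were lower (0.429%). Of the 14 tested genes of the cardiomyocyte list 4 were called lower in them and none higher, with a median log2 of -0.48 beside -0.01 over all genes, and the 15 listed genes summed to 388 against 1318 CPM. *Acta2*, which is not in that list, was at 66.7 against 407 CPM, *Ttn* at 109 against 474 CPM, *Tnnt2* at 36.1 against 170 CPM and *Mef2c* at 61.9 against 212 CPM. Among factors and ligands, *Hand2* (134 against 326 CPM), *Tlx1* (14.3 against 70.8 CPM) and *Bmp2* (10.5 against 48.0 CPM) were lower as well. *Osr1*, a factor of intermediate and lateral mesoderm, ran the other way at 46.7 against 5.04 CPM, as did *Aldh1a2*, which makes retinoic acid, at 18.6 against 1.20 CPM, *Pitx1*, a hindlimb factor, at 40.7 against 8.16 CPM and *Rspo3* at 34.0 against 3.60 CPM. *Prrx2* differed less, at 206 against 287 CPM. Splitting cells thinned to 5000 UMIs (152 with and 277 without) left 26 genes higher and 29 lower, with a log2 of -1.65 for *Ttn*, -1.54 for *Acta2*, -1.25 for *Tlx1*, 1.24 for *Osr1* and 1.03 for *Aldh1a2*, while *Hand2* (-0.94), *Pitx1* (0.95) and *Rspo3* (0.94) kept their direction but not the call.

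Endothelial RNA moved with this split. The 12 endothelial genes summed to 199 CPM in the cells with *Hox* genes of groups 5 to 13 and 96.0 CPM in those without, and reached 10 UMIs in 11 and 2 cells. *Cldn5* (19.8 against 0.480 CPM) and *Ecscr* (22.1 against 1.20 CPM) were among the higher genes of the split, but in the thinned split they turned to a log2 of -0.46 and -0.31, and they are given without a direction. Without the cells that held 10 or more endothelial UMIs (173 and 164 cells left), 43 genes were higher and 60 lower, of which 39 and 55 were the same genes. *Osr1*, *Aldh1a2*, *Pitx1* and *Rspo3* stayed higher there and *Acta2*, *Ttn*, *Tlx1* and *Hand2* lower, while *Cldn5* and *Ecscr* were no longer called. In the thinned split the neural factor *Sox2* was among the higher genes, at 16.5 against 1.01 CPM. So were *Hes5* (16.1 against 0.634 CPM) and *Fabp7* (19.6 against 3.04 CPM), also known from neural cells. The neural list was not followed in the splits, and the part of neural RNA in them was not tested.

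*Hand1*, the partner of *Hand2* in lateral and extraembryonic mesoderm, divided the cells differently, with 144 cells at 3 or more UMIs and 197 at 0, at nearly equal depths of 28259 and 28168 UMIs. With *Hand1*, 33 genes were higher (0.24%), *Hand1* among them, and 2 lower (0.0145%). *Phlda2*, an imprinted growth regulator, was at 108 against 16.4 CPM, *Phox2a* at 60.3 against 7.20 CPM, and the keratin genes *Krt8* and *Krt18* at 81.9 against 14.6 CPM and 33.3 against 4.42 CPM. *Msx1*, a BMP-responsive homeobox gene, was at 69.2 against 24.4 CPM and *Gata4* at 37.6 against 13.1 CPM. The lower genes were *Arg1* (13.9 against 54.7 CPM) and *Osr1* (12.3 against 42.1 CPM). In the thinned split (129 with and 300 without) 15 genes were higher and 4 lower, with a log2 of 1.67 for *Phlda2*, 1.54 for *Phox2a*, 1.49 for *Krt8* and -1.06 for *Osr1*, and *Gata4* was no longer called at 0.45. Of the 4 lower genes *Ctla2a* (-1.72) and *Cldn5* (-1.22) are endothelial, and the others were *Arg1* and *Osr1*. The endothelial list summed to 164 against 167 CPM in the *Hand1* split and to 128 against 167 CPM in the thinned split, and reached 10 UMIs in 9 and 6 cells and in 6 and 13 cells. Without those cells the *Hand1* split had 38 genes higher and 6 lower and the thinned split 17 and 2, the last being *Arg1* and *Osr1*, and *Phlda2*, *Phox2a* and *Krt8* stayed higher in both. *Prrx1* and *Prrx2* were alike on both sides, at 148 against 168 CPM and 242 against 238 CPM. The *Hand1* and *Hox* splits crossed, with 68 cells having both, 51 only *Hand1*, 87 only *Hox* genes and 74 neither.

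*Alx1* gave another pattern, in 289 cells with 2 or more UMIs and 67 with none, at median depths of 28168 and 26013 UMIs. With *Alx1*, 13 genes were higher (0.0944%), *Alx1* among them, and 23 lower (0.167%). The retinoid-binding *Crabp1* (227 against 102 CPM), the nuclear receptor *Nr2f1* (134 against 44.2 CPM) and *Igfbp5* (536 against 238 CPM) were among the higher genes. *Plac1* (2.31 against 39.5 CPM), *Hapln1*, which links matrix proteoglycans (28.6 against 121 CPM), and *Phlda2* (36.8 against 116 CPM) were lower, and *Hand1*, at 95.1 against 191 CPM, was not past the limit. Endothelial genes stood among the lower ones too, with *Ctla2a* at 12.2 against 63.1 CPM, *Etv2* at 2.86 against 27.4 CPM, *Cldn5* at 4.19 against 26.8 CPM and *Eng* at 2.42 against 21.0 CPM. All 12 genes of the endothelial list lay below 0, their sum was 112 against 230 CPM, and 10 cells and 6 cells held 10 UMIs or more. Without those cells (279 and 61 left) 10 genes were higher and 12 lower, of which 9 and 11 were the same genes. *Plac1*, *Hapln1*, *Phlda2*, *Nr2f1* and *Igfbp5* stayed past the limit, while *Crabp1* (log2 of 0.92), *Ctla2a* (-0.43), *Etv2* (-0.58), *Cldn5* (-0.15) and *Eng* (-0.34) were not. *Tbx18* divided few cells, as 401 of the 429 had none.

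**Figure D4:**
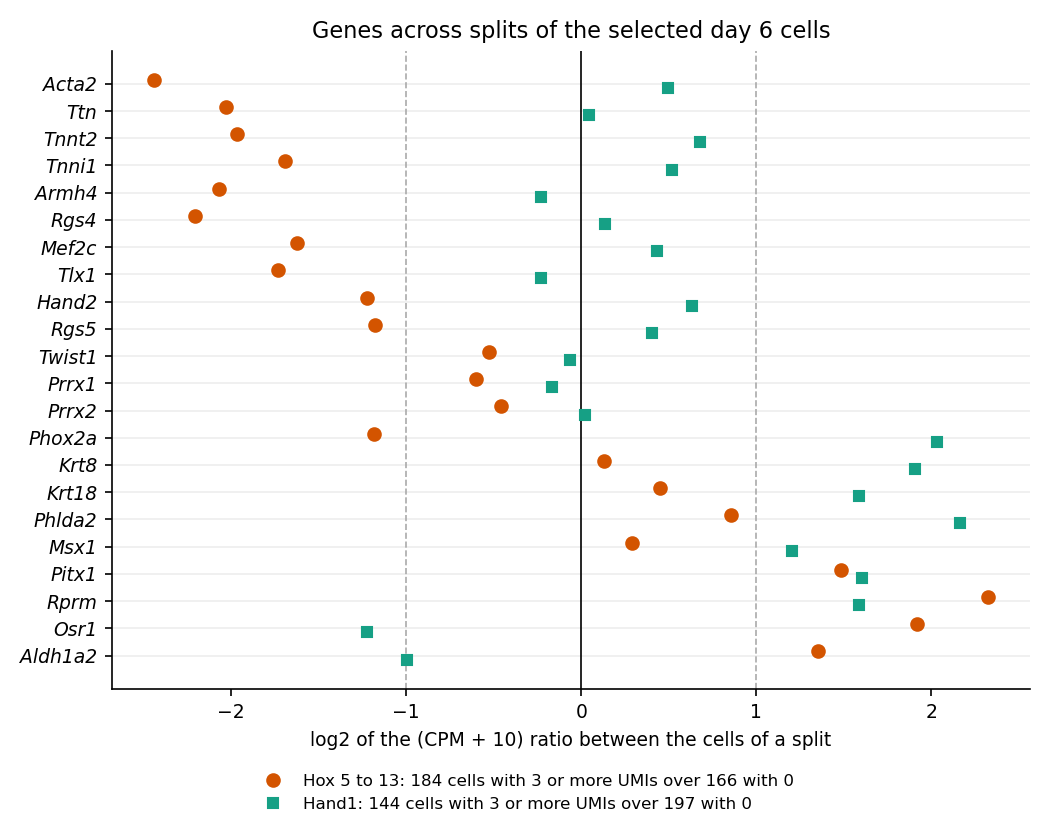
Log2 of the (CPM + 10) ratio of 22 genes between the cells of 2 splits of the 429 cells: by *Hox* genes of groups 5 to 13 (circles, 184 over 166 cells) and by *Hand1* (squares, 144 over 197 cells); dashed lines mark -1 and 1. *Acta2*, *Ttn*, *Tnnt2* and *Tlx1* lie left of -1 in the *Hox* split only, keratin genes right of 1 in the *Hand1* split only, and *Osr1* on opposite sides.

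The same rule was applied to the other days. It found 646 cells at day 4 (8.97%, 8.32 to 9.65%), 256 at day 5 (3.46%, 3.05 to 3.90%), 429 at day 6 and 640 at day 11 (7.33%, 6.79 to 7.90%). Median depths of these cells were 39999, 36342.5, 27719 and 12108.5 UMIs, and limits per 10000 UMIs gave 3.24%, 0.621%, 4.84% and 10.0% of cells. The order of days 4, 6 and 11 thus depends on how the limits are set. With 1 library per day, day, library and depth cannot be told apart, and cells passing the rule on different days need not be of 1 lineage.

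Several genes were highest at day 6 in the cells passing the rule. *Prrx2* was at 112, 96.1, 239 and 119 CPM at days 4, 5, 6 and 11, *Alx1* at 9.22, 7.73, 109 and 28.6 CPM, *Tlx1* at 0.541, 11.5, 37.3 and 4.43 CPM and *Hand2* at 114, 111, 215 and 34.3 CPM. *Hand1* was at 270, 197, 109 and 0.721 CPM. *Prrx1*, a rule gene, was at 119, 92.9, 163 and 539 CPM. Its values depend on the limit of 3 UMIs and on depth, which differed by day, and are no finding. The cells of the same day outside the rule moved alike for *Prrx2* (41.1, 51.5, 154 and 61.4 CPM) and *Alx1* (2.54, 2.09, 53.1 and 21.9 CPM).

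Many matrix genes were higher in the cells passing the rule at day 11 than in those of day 6. Of 51 listed matrix genes 24 were higher past the limit and 2 lower, where 3.06% and 1.35% of 15490 genes were. Their summed level was 1012, 1094, 2165 and 5431 CPM over the days, against 994, 1019, 1932 and 3695 CPM in other cells. *Col3a1* was at 2.16, 0.828, 108 and 901 CPM, and *Col1a2*, a chain of the main fibrillar collagen, at 0.676, 0.184, 22.7 and 398 CPM. *Postn*, a matricellular gene, was at 6.70 CPM at day 6 and 126 CPM at day 11, *Lum* at 1.13 and 83.0 CPM and *Dcn* at 0.301 and 137 CPM, the last of these with other cells of day 11 at 71.1 CPM. *Cdh11* was at 49.6, 17.3, 70.5 and 191 CPM.

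**Figure D5:**
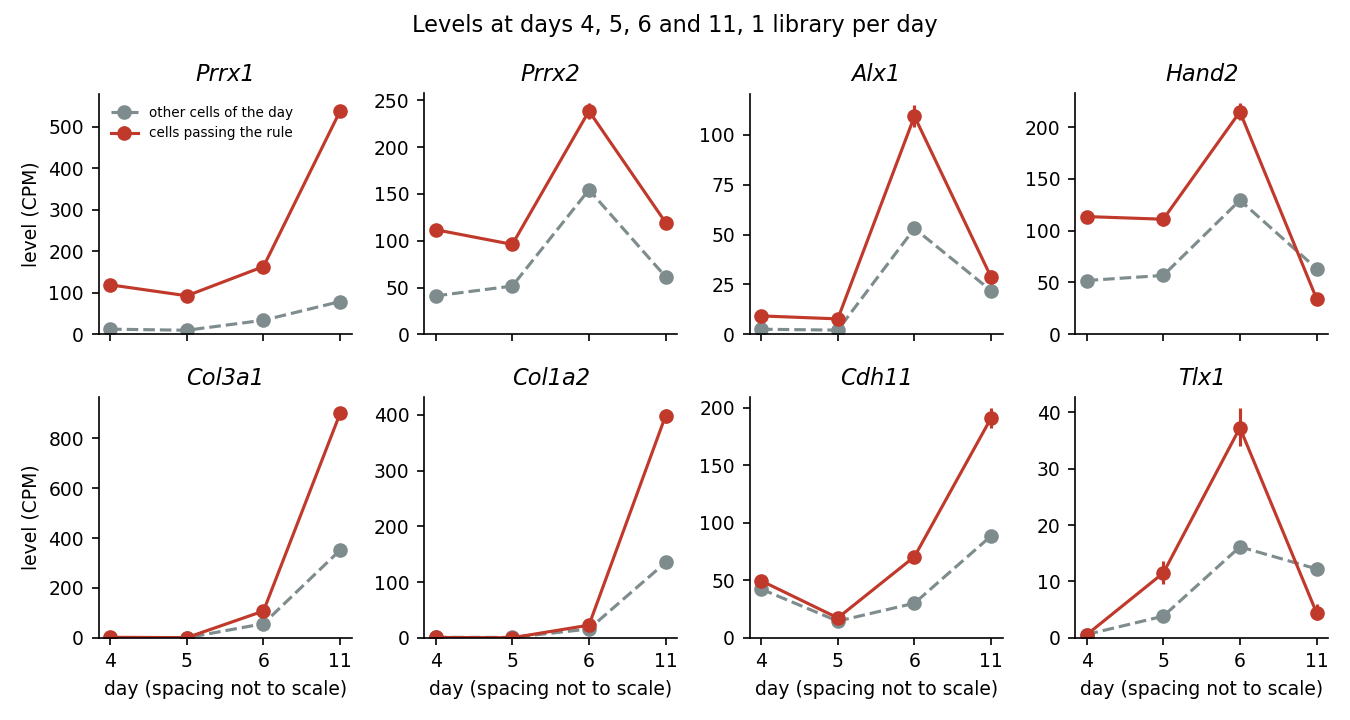
Levels (CPM, linear axes from 0) of 8 genes at days 4, 5, 6 and 11 in cells passing the rule (red, bars are 95% Poisson intervals) and in the other cells of each day (grey), 1 library per day. *Prrx2*, *Alx1*, *Hand2* and *Tlx1* are highest at day 6, and *Prrx1*, *Col3a1*, *Col1a2* and *Cdh11* at day 11, where *Col3a1* reaches 901 CPM.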

How the data were processed

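Single-cell RNA was measured in 1 library per day of Zx1 gastruloids (3′ Chromium kit). The authors deposited raw UMI counts per gene and cell, aligned to mm10 per the labels, with Cell Ranger 3.1.0 named in the headers of days 4 to 6 and 6.0.1 in that of day 11. Barcodes had been called as cells, which sets which cells can be measured, and reads of copies of a gene sharing sequence may be lost. No column was left unused (0).

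Counts were summed over cells with Python 3.11.15, NumPy 2.4.6, SciPy 1.17.1 and pandas 2.3.3. CPM, shares and sums used all genes, and log2 ratios of (CPM + 10) were called for genes with at least 100 UMIs. Intervals (95%) are exact Poisson, conditional binomial or Clopper-Pearson and cover counting error only. The call rule was checked on simulated counts. Scrublet (scanpy 1.11.5) marked 0 cells by its automatic threshold and so had not worked, and doublets were kept. An alternative left out the 8% with the highest scores, with 28 of the 429 cells.

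Named genes are those of the lists and the leading genes of each comparison, 25 higher and 15 lower against all other cells, and 10 in each direction against *Tcf21* cells and of each split, without rule, mitochondrial and ribosomal genes. As few passed the limit, the lists went on by size below it. Further genes, and those against *Lhx2* and *Tcf15/Meox1* cells, were chosen after their values were seen. The cells, the lists and the comparison sets were chosen with earlier results of these data known. Alternatives changed the UMI limits, exclusions, filters, depth weighting, averaging, pseudocount and gene minimum. Splits on thinned counts and splits without cells of 10 or more endothelial UMIs were added after the data had been seen.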

Additional observations from a re-analysis of the deposited data

How the results depend on the processing

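The 429 cells became 738 with limits of 2 UMIs, 266 with 4, 283 with limits per 10000 UMIs and 862 with no exclusions. Of the counts against all other cells (4 higher, 78 lower), the higher count moved to 12 with limits per 10000 UMIs, 2 with the mean of per-cell CPM, 28 with a pseudocount of 1 and 7 with limits per 10000 UMIs plus depth weighting, an alternative added after the data had been seen. The lower count moved to 34 with no exclusions and 428 with a pseudocount of 1. Against *Tcf21* cells (1 higher, 3 lower), the higher count was 0 with 2 UMIs, 2 with 4 UMIs, with the highest doublet scores left out, with the mean of per-cell CPM and with depth weighting, 5 with limits per 10000 UMIs and with a pseudocount of 1, 3 with these limits plus depth weighting and 27 with no exclusions. The lower count there was 1 with 2 UMIs, 15 with limits per 10000 UMIs, 35 with a pseudocount of 1 and 6 with limits per 10000 UMIs plus depth weighting.

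*Lix1* and *Cdh11* were both called with limits per 10000 UMIs, but neither was with 2 UMIs, with no exclusions or with the mean of per-cell CPM, and *Cdh11* was not with 4 UMIs or with limits per 10000 UMIs plus depth weighting. The 46 genes followed (25 higher and 15 lower leading genes, with *Twist1*, *Prrx1*, *Prrx2*, *Top2a*, *Hoxb9* and *Hoxc10*) kept their sign in each of the 12 alternatives. Most were picked by their difference between these same cells, and *Twist1* and *Prrx1* belong to the rule, so this is a description only. Their log2 moved by more than the half-width of its interval in 38 genes with a pseudocount of 1 and 33 with no exclusions. It did so in 27 with limits per 10000 UMIs and in 0 to 22 in the other alternatives. No paired analysis was possible because there was 1 library per day and the result comes from no test. The causes of these shifts were not tested. Depth limits genes near 1 UMI per cell, and no replicate library was present to give a spread.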
